A study of Mus musculus with 48 samples.

Results

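Subcutaneous inguinal white adipose tissue (sWAT) of mice fed in 2 windows each night (TAN mice) was compared with that of ad-lib mice in the RNA-seq libraries whose count columns carry the time label 12 AM. These were 8 of 48 libraries, 4 of TAN mice and 4 of ad-lib mice, chosen by the column names alone. The other 40 libraries cover the same diets at 5 further time points and served only to estimate the spread between libraries and to set the effect at 12:00 a.m. beside that at other times. TAN mice had food only in these windows, one in the evening and one towards morning in the dark phase, while ad-lib mice had food at all times, and the lights were off at 12:00 a.m. All mice were C57BL/6 and 8 months old according to the labels, with no transgene or drug in either group, and the study describes males on its stated background. The TAN mice also ate slightly less than their controls by the study's account, so the timing of food and its amount cannot be told apart here. The labels number the mice of a group but do not say whether they shared cages, and p-values measure only the spread between these samples.

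The time label has 2 versions. Gene lists published with the paper give values per library under the same animal names, and all 8 libraries matched the list entry of the same animal at a time 12 h away from the count column's label. Across 979 genes the closest entry differed by at most 0.000152 in absolute log2 value and the next closest by at least 0.129. The deposited group means followed the count labels in 12 of 12 groups. The labels of the count table are used throughout, so "12:00 a.m." here is what those published lists call 12:00 p.m., and the reverse.

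The clock transcripts were the only internal reading of time. In mouse peripheral tissue under a light-dark cycle, Nr1d1 and Dbp are known to peak in the later light phase, Per2 around the start of the night and Arntl around its end. Levels are in CPM, counts per 1000000 counts of a library after its total is multiplied by a TMM normalisation factor. Nr1d1, which encodes a repressor of the clock, had a mean of 3.63 CPM ± 1.09 (SD, n = 4) in ad-lib mice at 12:00 a.m. and 54.1 ± 20.9 at 12:00 p.m. In TAN mice the means were 6.71 ± 3.65 and 75.9 ± 16.03. Per2 showed the opposite order, with 20.7 ± 5.37 CPM at 12:00 a.m. and 4.80 ± 4.65 at 12:00 p.m. in ad-lib mice. The highest mean of Nr1d1 among the 6 time points was that of 4:00 p.m. in both diets, 92.3 CPM in ad-lib and 138 CPM in TAN mice, and that of Arntl was at 8:00 a.m., 32.3 and 46.0 CPM.

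White adipocytes take up sugar and fatty acids after a meal and store them as triglyceride. De novo lipogenesis turns carbon from glucose, passed on as citrate and acetyl-CoA, into fatty acids with NADPH from the pentose phosphate pathway and malic enzyme, and the mevalonate pathway turns acetyl-CoA into squalene, lanosterol and cholesterol. These routes are known to be under the sterol regulatory element-binding proteins and, for lipogenic genes, the carbohydrate-responsive factor ChREBP. The inguinal fat pad also holds a lymph node, so that a bulk sample can carry RNA of lymphocytes.

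Total counts were 18242523 to 24077286 in the TAN libraries and 20268464 to 29913310 in the ad-lib libraries of 12:00 a.m., and mitochondrially encoded genes took 6.38% to 11.9% and 4.27% to 5.75% of them. The TMM factors were 0.975 in TAN replicate 1, 0.763 to 0.792 in TAN replicates 2 to 4 and 0.957 to 1.09 in ad-lib libraries. A lower factor raises the CPM of a library. The series calls the material a stromal vascular fraction and the paper whole sWAT. Markers of adipocytes were detected in all 8 libraries, with 15756 to 22017 CPM summed over 12 markers in ad-lib and 21142 to 40151 CPM in TAN libraries. TAN replicate 1 stood apart from the other TAN libraries, as did to some degree replicate 3. The summed level of 12 B cell markers was 2169, 137, 636 and 108 CPM in TAN replicates 1 to 4 and 2000.0 to 2498 CPM in the ad-lib libraries. For 13 T cell markers it was 1249, 9.41, 238 and 16.5 CPM against 554 to 824 CPM, and for 9 markers of lymph node venules and stroma 494, 19.6, 173 and 9.90 CPM against 321 to 383 CPM. All 4 ad-lib libraries and TAN replicate 1 thus carried these transcripts, and TAN replicates 2 and 4 nearly lacked them. TAN replicate 1 lay within the ad-lib range for B cell markers and above every ad-lib library for T cell and lymph node markers. In bulk samples, fewer cells of a type and less RNA per cell cannot be told apart.

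**Figure D1:**
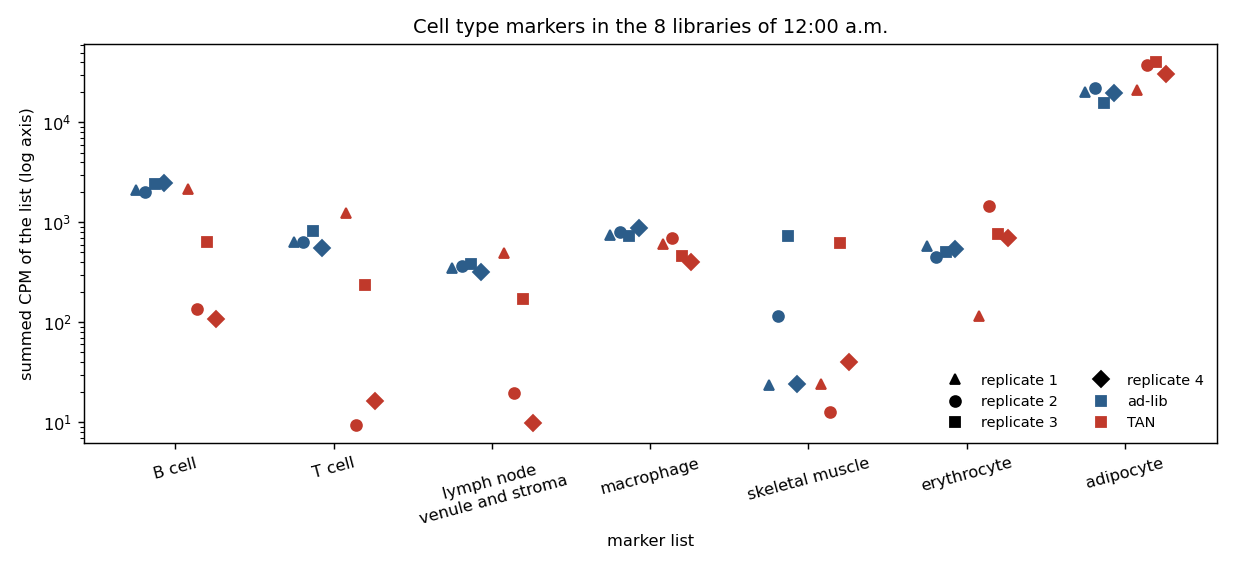
Summed CPM (log axis) of the genes of 7 marker lists in each of the 8 libraries of 12:00 a.m., with diet by colour and replicate by symbol. In TAN replicate 1, B cell markers lie within the range of the ad-lib libraries and T cell and lymph node markers above it. T cell markers of TAN replicates 2 and 4 sum to 9.41 and 16.5 CPM.

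At 12:00 a.m., 22 genes were higher and 5 lower in TAN than in ad-lib mice of 19977 tested, which is 0.110% and 0.0250% of the genes. A gene was called with an adjusted p under 0.05 in edgeR's quasi-likelihood test and an absolute log2 fold change above 1. In an edgeR fit of these 8 libraries alone the numbers were 0 and 0 (303 and 530 before adjustment of p), and DESeq2 on the 48 libraries called 146 higher and 154 lower. The 22 genes included 5 of cholesterol synthesis (Cyp51, Mvd, Dhcr7, Sqle and Fdft1), the enolase Eno1, the transketolase Tkt, the fatty acid-binding protein Fabp5 and the enoyl-CoA reductase Tecr. The genes with lower levels included Il1rl1, the receptor of IL-33, and Csf1, the growth factor of macrophages. In 21 of the 22 higher genes all 4 TAN libraries lay above all 4 ad-lib libraries, against 3.59% of all tested genes, and in all 5 lower genes they lay below, against 5.54%. TAN replicate 1 was the lowest TAN library in 21 of the 22 higher genes. The call depended on single libraries: 8 of the 27 genes were called in each of the 8 fits that left out 1 library, and 16 in no more than 3 of them. Leaving out TAN replicate 1 raised the numbers to 281 (1.36% of the genes in that fit) and 254 (1.23%), and without any other single library 7 to 20 higher and 1 to 6 lower.

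**Figure D2:**
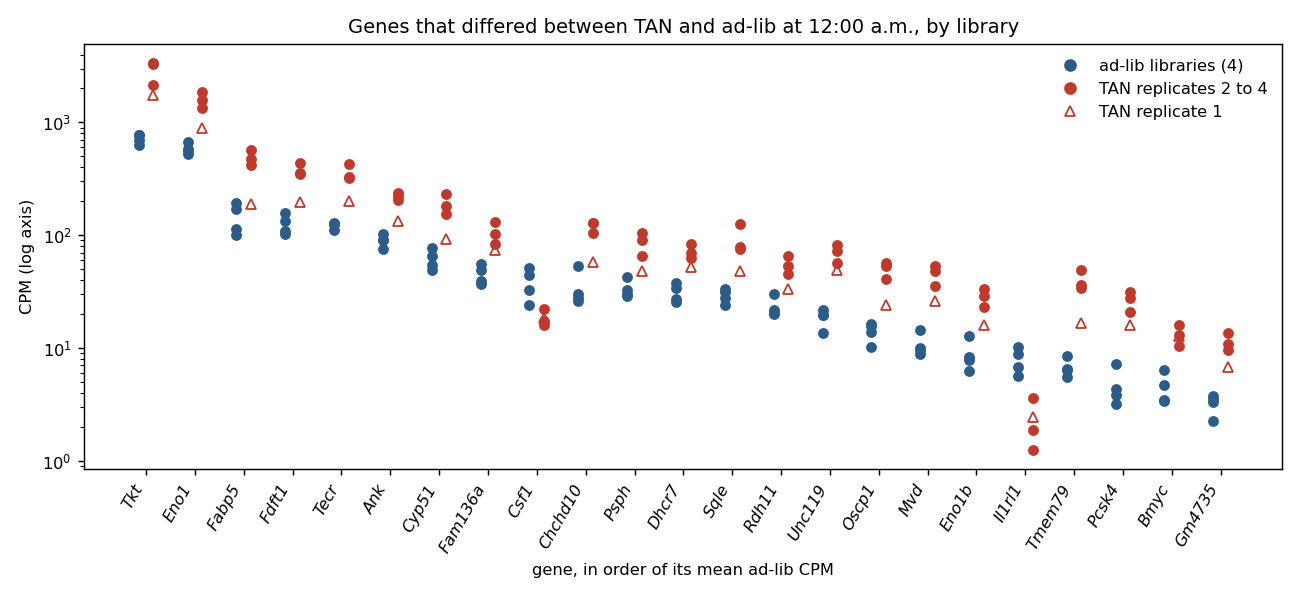
CPM (log axis) of 23 called genes in the 4 ad-lib libraries (blue), TAN replicates 2 to 4 (filled red) and TAN replicate 1 (open triangle), ordered by mean ad-lib level. Open triangles lie below the filled points for all higher genes drawn but Bmyc and, except for Fabp5, above the blue points. The 3 called genes with 0 counts in every TAN library are not drawn.

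The promoters of the cholesterol genes are shown because these genes rose together. RefSeq promoters (build GRCm38.p6, 300 bases around the start site) were available for 16 of the 24 genes of the cholesterol list, and 3 of the 5 called genes were among them. Sqle and Fdft1 were not among them. Capitals mark the CCAAT box, the letters CCAAT on either strand. Dhcr7 has 3 promoters in the table. The one printed was chosen because it holds the CCAAT box, and the others hold none. The regions are chr5:4104648-4104947 on the minus strand for Cyp51, chr8:122443373-122443672 on the minus strand for Mvd and chr7:143829964-143830263 on the plus strand for Dhcr7.
Cyp51: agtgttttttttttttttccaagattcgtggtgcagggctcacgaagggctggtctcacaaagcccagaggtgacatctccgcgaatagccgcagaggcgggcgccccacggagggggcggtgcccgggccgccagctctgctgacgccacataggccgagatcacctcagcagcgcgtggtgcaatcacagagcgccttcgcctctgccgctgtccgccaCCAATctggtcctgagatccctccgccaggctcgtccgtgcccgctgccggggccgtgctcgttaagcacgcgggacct
Mvd: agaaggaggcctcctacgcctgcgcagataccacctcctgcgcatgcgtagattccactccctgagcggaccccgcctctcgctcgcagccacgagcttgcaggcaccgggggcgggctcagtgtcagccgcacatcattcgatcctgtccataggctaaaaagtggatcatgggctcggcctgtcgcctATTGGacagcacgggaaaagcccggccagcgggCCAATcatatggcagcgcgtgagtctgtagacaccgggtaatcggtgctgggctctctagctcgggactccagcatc
Dhcr7: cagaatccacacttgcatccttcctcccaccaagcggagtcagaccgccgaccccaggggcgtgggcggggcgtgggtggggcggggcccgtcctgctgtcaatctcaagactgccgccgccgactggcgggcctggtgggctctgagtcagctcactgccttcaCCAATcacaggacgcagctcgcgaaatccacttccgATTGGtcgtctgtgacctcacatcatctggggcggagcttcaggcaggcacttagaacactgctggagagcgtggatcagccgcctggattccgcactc

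The letters CCAAT were in 16 of the 19 promoters of the cholesterol list (84.2%) and in 37.4% of all 32851 promoters of the same length. The E-box CACGTG, its own reverse complement, was in 4 of the 19 (21.1%) and in 7.15% of all. A sterol regulatory element spelled TCACNCCAC was found on either strand in 1 of the 19, that of Hmgcs1 (5.26%), and in 1.24% of all. Among the 21 promoters of higher genes in the table, 11 held CCAAT (52.4%), 2 held CACGTG (9.52%) and 0 held TCACNCCAC (0%). These are matches of letters. The 3 sequences printed hold CCAAT but neither CACGTG nor TCACNCCAC.

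Cholesterol synthesis held the most called genes of any list. Of 24 genes tested, 5 rose and none fell. At an unadjusted p below 0.05, called nominal from here on, 16 were higher and 1 lower, where 8.00% and 9.48% of all genes were. The median log2 fold change was 1.08, where that of all tested genes was -0.14. Summed over the list, TAN replicate 1 had 2437 CPM, within the ad-lib range of 1470 to 2726, and TAN replicates 2 to 4 had 4189 to 5860. In TAN replicates 1 and 3 alone against the 4 ad-lib libraries, no gene of the list was called.

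Cyp51 encodes lanosterol demethylase and lies on chromosome 5 at 4081145 to 4104746 of GRCm38. Its level was 92.9, 233, 181 and 154 CPM in TAN replicates 1 to 4 and 65.2, 76.8, 54.1 and 49.3 CPM in ad-lib replicates 1 to 4. Every TAN library lay above every ad-lib library. The log2 fold change was 1.43 ± 0.23 (SE) with an adjusted p of 0.00161 (edgeR).

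Mvd, on chromosome 8 at 122433601 to 122443422, encodes the decarboxylase that forms isopentenyl diphosphate, and it had the largest change of the list among genes called. TAN libraries had 26.3, 47.95, 53.4 and 35.6 CPM and ad-lib libraries 9.88, 8.81, 14.3 and 9.62 CPM, so that the diets did not overlap. Its log2 fold change was 1.93 ± 0.31 (SE), with an edgeR adjusted p of 0.00161.

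Dhcr7 encodes the reductase of the last step to cholesterol and lies on chromosome 7 at 143823145 to 143848410. The TAN libraries had 52.6, 84.3, 69.0 and 62.6 CPM and the ad-lib libraries 25.4, 37.5, 34.1 and 27.3 CPM. Here too the lowest TAN library was above the highest ad-lib library, and the log2 fold change was 1.11 ± 0.20 (SE) at an edgeR adjusted p of 0.00375. Cyp51, Mvd and Dhcr7 were called in all 8 fits without 1 library.

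Fdft1 makes squalene and Sqle oxidises it. Fdft1 had 198, 434, 355 and 350 CPM in TAN and 158, 133, 110 and 102 CPM in ad-lib libraries. Sqle had 47.7, 127, 76.1 and 78.5 CPM against 31.2, 33.5, 23.9 and 27.8 CPM. Both were non-overlapping, with log2 fold changes of 1.41 ± 0.31 and 1.497 ± 0.31 (SE) and edgeR adjusted p of 0.0309 and 0.0225, and they held in 2 and 3 of the 8 fits. Akap9 overlaps Cyp51 and Ctsb overlaps Fdft1 on the opposite strand, and the strand setting of the counts is not given in the sources used here.

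Srebf2, the transcription factor of the pathway, had a log2 fold change of -0.51. Nsdhl, a further enzyme after lanosterol, had 1.56 and Pmvk, the phosphomevalonate kinase, 1.303, and neither passed.

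Sterol genes were the ones for which the effect at 12:00 a.m. stood apart from that at 12:00 p.m. most often of the lists, before adjustment. Their median log2 fold change at 12:00 p.m. was 0.24, and the difference between the times was nominal with a more positive effect at 12:00 a.m. in 11 of 24 genes (6.46% of all genes) and a more negative one in 1 (9.04%). The single exception was Srebf2, with 0.84 at 12:00 p.m. Msmo1, the sterol methyl oxidase, had log2 fold changes of 1.10 at 12:00 a.m. and -0.59 at 12:00 p.m., a difference of 1.69 with an unadjusted p of 0.000247 and an adjusted p of 0.199 (edgeR). Cyp51 had 1.43 and 0.17 (adjusted p of the difference 0.199), and Hsd17b7 had 1.06 and -0.52 (0.208). None of these differences passed adjustment over all genes. The remaining genes of the 11 were Dhcr7, Sqle, Fdft1, Idi1, Ebp, Sc5d, Hmgcs1 and Stard4, and the genes of the 11 that were not called, Msmo1 and Hsd17b7 included, were chosen after their values were seen. At 12:00 p.m. the T cell markers summed to 21.9, 1023, 15.3 and 850 CPM in ad-lib replicates 1 to 4. TAN libraries had 315 to 749 CPM then. The libraries that nearly lacked these transcripts were thus ad-lib at 12:00 p.m. and TAN at 12:00 a.m. Differences between the times, in this and other lists, go along with that reversal, and its share in them was not tested.

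**Figure D3:**
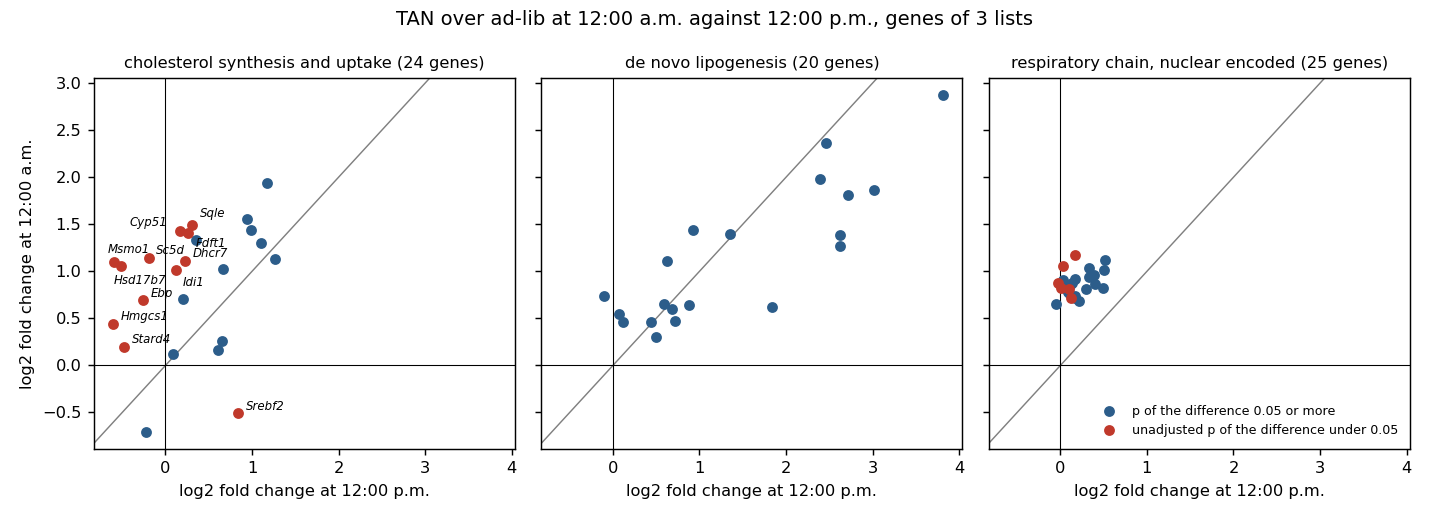
Log2 fold change of TAN over ad-lib at 12:00 a.m. (vertical axis) against that at 12:00 p.m. (horizontal axis) for the genes of 3 lists, with the line of equal change in grey and genes in red where the difference was nominal. Of 24 sterol genes, 12 are red, most of them above the line, and none of 20 lipogenesis genes is red.

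De novo lipogenesis had no called gene at 12:00 a.m. although several of its members had large fold changes. All 20 genes of the list had positive log2 fold changes, with a median of 0.92, and 11 were nominally higher (8.00% of all genes). In 9 of the 20 the diets did not overlap (3.59% of all genes). Elovl6, which elongates palmitate, had 398, 1234, 791 and 1703 CPM in TAN and 238, 136, 87.3 and 103 CPM in ad-lib libraries. All TAN libraries were higher, but they spread over a wide range, and the log2 fold change of 2.87 ± 0.66 (SE) had an adjusted p of 0.0559 (edgeR). Me1, the cytosolic malic enzyme, had a log2 fold change of 2.37 (adjusted p = 0.0685), Slc25a1, the mitochondrial citrate carrier, 1.98 (0.0637), Acly, which splits citrate, 1.86 (0.118), Scd2, a stearoyl-CoA desaturase, 1.40 (0.107), and Fasn, the fatty acid synthase, 1.38 (0.192), all from edgeR. Summed over the list, TAN replicate 1 had 40794 CPM and the other TAN libraries 79324 to 99692, where the ad-lib libraries had 27257 to 36548. Without TAN replicate 1, 6 of the 20 genes were called, against 1.36% of all genes in that fit.

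At 12:00 p.m., 5 of the 20 lipogenesis genes were called higher (0.0851% of all genes). Elovl6 had a log2 fold change of 3.81 and Acly of 3.02 at that time. For none of the 20 did the difference between the 2 times reach the nominal threshold.

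Tecr, which catalyses the last step of fatty acid elongation and belongs to no list, was called in all 8 fits without 1 library. It lies on chromosome 8 at 83571698 to 83607971. TAN libraries had 203, 329, 324 and 428 CPM and ad-lib libraries 126, 126, 128 and 110 CPM, without overlap. The log2 fold change was 1.39 ± 0.23 (SE) and the edgeR adjusted p 0.00161.

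Sugar uptake and glycolysis followed with Eno1 as the called gene among 24. The median log2 fold change was 0.75, and 17 genes were nominally higher and 1, the hexokinase Hk1 (-0.95), nominally lower. The shares over all genes were 8.00% and 9.48%. Eno1 converts phosphoglycerate to phosphoenolpyruvate, and its CPM was 885, 1586, 1342 and 1872 in TAN and 579, 673, 556 and 520 in ad-lib libraries. These did not overlap, and the log2 fold change was 1.29 ± 0.24 (SE) with an edgeR adjusted p of 0.00825. Eno1b, with 1.52, and Gm4735, with 1.67, were called as well. Eno1b is a near copy of Eno1 whose reads the counting may have split, so its value is uncertain, and the same may hold for Gm4735. Pkm, the pyruvate kinase, had an edgeR adjusted p of 0.0301 at a log2 fold change of 0.99, just under the fold threshold. Eno1 was not called without TAN replicate 4, without ad-lib replicate 4 or with the B and T cell markers as a covariate.

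Slc2a5, the fructose transporter, had the largest fold change of the named metabolic genes. Its level was 41.1, 133, 84.3 and 125 CPM in TAN and 15.98, 8.71, 7.85 and 5.26 CPM in ad-lib libraries. Its diets did not overlap either, and the log2 fold change of 3.34 ± 0.77 (SE) missed the threshold with an edgeR adjusted p of 0.0559. At 12:00 p.m. it was 4.74.

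Of the 10 genes of the pentose phosphate pathway and NADPH supply, Tkt was called, and 8 were nominally higher (8.00% of all genes). The median log2 fold change was 0.99. Tkt, the transketolase of the non-oxidative branch, lies on chromosome 14 at 30548359 to 30574720. It had 1740.5, 2143, 3341 and 3326 CPM in TAN and 766, 624, 769 and 703 CPM in ad-lib libraries. Even TAN replicate 1 was far above the ad-lib libraries. The log2 fold change was 1.88 ± 0.37 (SE), with an edgeR adjusted p of 0.0174, and it was 2.47 at 12:00 p.m. Tkt was not called without TAN replicate 3 or 4, without ad-lib replicate 3 or 4, or with the B and T cell markers as a covariate. Pgd, the phosphogluconate dehydrogenase of the oxidative branch, had 1.32 and Taldo1, the transaldolase, 1.05, and both missed the threshold (edgeR adjusted p = 0.118 for each).

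Respiratory chain genes encoded in the nucleus had similar positive values throughout. None of 25 was called, yet all 25 were nominally higher, against 8.00% of all genes, with log2 fold changes of 0.66 to 1.17 and a median of 0.85. Diets did not overlap for 9 of the 25, against 3.59% of all genes. Ndufb9, a complex I subunit, had a log2 fold change of 1.17, and Cox5a and Cox5b, subunits of cytochrome c oxidase, had 1.01 and 1.04. The median at 12:00 p.m. was 0.17, and the difference between the times was nominally positive in 6 of the 25 (6.46% of all genes). Summed over the list, TAN replicate 1 had 9564 CPM, within the ad-lib range of 7013 to 10493, and TAN replicates 2 to 4 had 15481 to 19574. Without that library 17 of the 25 were called, where 1.36% of all genes were. The 13 mitochondrially encoded genes had a median log2 fold change of 0.82, with 4 nominally higher, and TAN replicate 4 alone reached 146906 CPM in their sum, against 64779 to 85163 in the other TAN and 37691 to 56629 in the ad-lib libraries.

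Genes of the TCA cycle had a median of 0.73, with 15 of 21 nominally higher, and those of fatty acid oxidation 0.63, with 9 of 19. No gene of either list was called. Of all genes, 8.00% were nominally higher and 9.48% lower. Idh3b, an isocitrate dehydrogenase subunit, had a log2 fold change of 0.85, and Hadhb, of the trifunctional protein, 0.89. Medians were 0.70 for triglyceride synthesis (4 of 12 genes nominally higher), 0.51 for glycogen metabolism (4 of 14), 0.46 for branched-chain amino acid catabolism (4 of 18 higher and 1, the phosphatase Ppm1k, lower) and 0.37 for lipolysis, lipid droplet and lipid uptake (4 of 21). Fabp5 was the called gene of the last list, with 191, 564, 423 and 470 CPM in TAN and 193, 171, 113 and 99.6 CPM in ad-lib libraries. It is the higher gene whose diets overlapped, through TAN replicate 1 and ad-lib replicate 1. Fabp5 was not called without TAN replicate 2, 3 or 4, without ad-lib replicate 3 or 4, or with the B and T cell markers as a covariate.

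**Figure D4:**
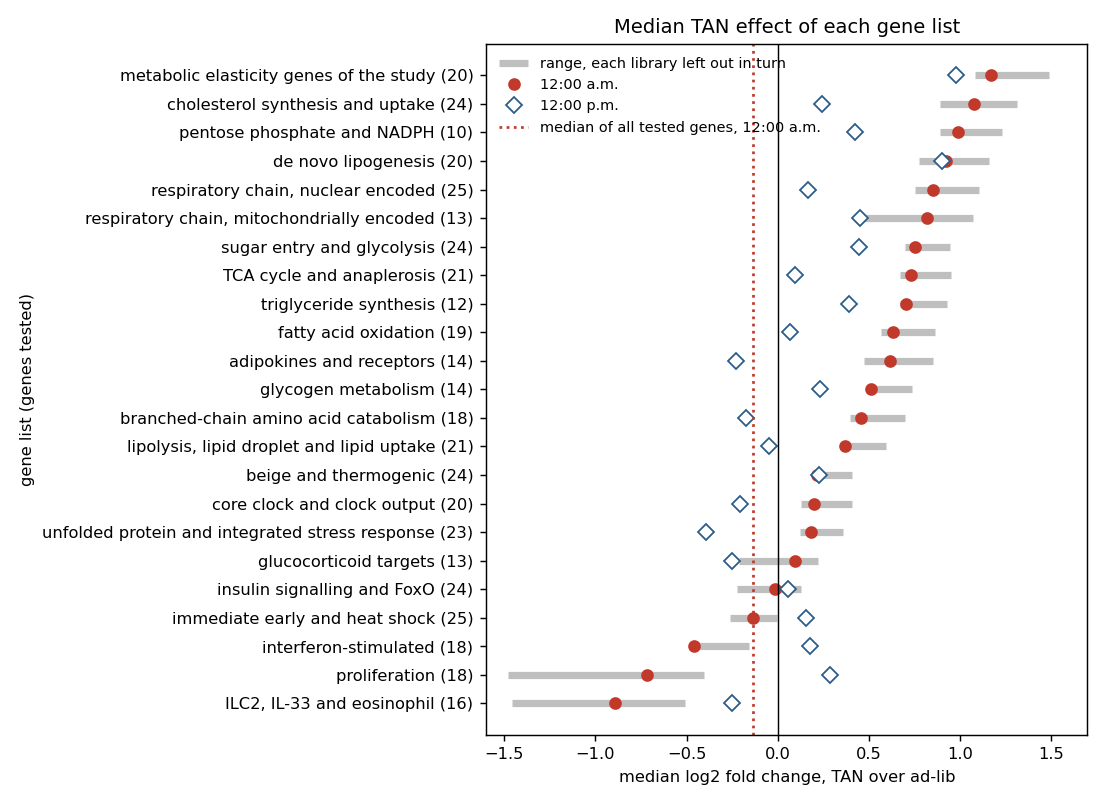
Median log2 fold change of TAN over ad-lib for 23 gene lists at 12:00 a.m. (red) and 12:00 p.m. (open diamonds), with the number of genes tested in brackets, the range over the 8 fits without 1 library as grey bars and the median of all tested genes at 12:00 a.m. (-0.14) as a dotted line. Lists of lipid, sugar and energy metabolism lie to the right of zero at 12:00 a.m., and the immune and proliferation lists to the left.

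Metabolic genes moved with the marker lists. TAN replicates 2 to 4 had both the highest sums of metabolic genes and the highest sums of adipocyte markers. The median log2 fold change of these markers was 0.33, with 1 of 12 genes nominally higher (8.00% of all genes). With the mean level of the adipocyte markers as a covariate, 47 genes were higher (0.235%) and 19 lower (0.0951%), among them 7 sterol and 4 lipogenesis genes, and the median of the sterol list was 0.87. With the B and T cell markers as a covariate, 5 were higher (0.0250%) and 2 lower (0.0100%), and 6 of the 27 genes were still called. They included Cyp51, Mvd, Unc119, Pcsk4 and F730311O21Rik. Tecr, with a log2 fold change of 0.997 (edgeR adjusted p = 0.00506), and Dhcr7, with 0.97 (0.0431), missed only the fold threshold there, and Csf1, with -1.09 (0.0579), and Bmyc, with 1.62 (0.0554), missed only the adjusted p. In that fit the sterol median was 0.56, the lipogenesis median 0.39 and the nuclear respiratory median 0.51, where that of all genes was -0.13. Other metabolic lists came closer to 0, with medians of 0.20 for triglyceride synthesis, 0.18 for fatty acid oxidation, 0.12 for glycogen metabolism, 0.0046 for branched-chain amino acid catabolism and -0.10 for lipolysis, lipid droplet and lipid uptake. Of 33 lists, 10 changed the sign of their median with this covariate, the adipocyte markers (-0.11) among them. The T cell list, also among the 10, is part of the covariate. In TAN replicates 1 and 3 alone, the libraries that carried lymphocyte transcripts, against the 4 ad-lib libraries, the medians were 0.78, 0.65 and 0.71 and 1 gene was called.

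Several of the most stable calls belonged to no metabolic list. Unc119, a chaperone of lipid-modified proteins on chromosome 11 at 78343482 to 78349164, had the smallest p of all genes. It had 49.0, 72.1, 82.0 and 57.0 CPM in TAN and 19.7, 19.6, 21.6 and 13.5 CPM in ad-lib libraries. The libraries of the diets lay far apart, and the log2 fold change was 1.80 ± 0.27 (SE) with an edgeR adjusted p of 0.000683. It was also called at 12:00 p.m., at 1.37 (edgeR adjusted p = 0.0116).

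Pcsk4 encodes a proprotein convertase known from the testis. Its CPM was 16.1, 27.7, 31.4 and 20.9 in TAN and 7.15, 3.20, 3.80 and 4.32 in ad-lib libraries, and its log2 fold change was 2.38 ± 0.41 (SE), at an edgeR adjusted p of 0.00253. The diets did not overlap. Further higher genes were Tmem79 (2.34), Oscp1 (1.64), Chchd10, a protein of the mitochondrial intermembrane space (1.61), Bmyc (1.54), Psph, the last enzyme of serine synthesis (1.21), Ank, a transporter of pyrophosphate and citrate (1.15), the mitochondrial Fam136a (1.12) and the retinol dehydrogenase Rdh11 (1.10), all as log2 fold changes.

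Among lower genes, Il1rl1 on chromosome 1 at 40429570 to 40465415 belonged to the list of type 2 innate lymphoid cells (ILC2), IL-33 and eosinophils. It had 2.43, 3.58, 1.88 and 1.25 CPM in TAN and 8.83, 5.65, 6.78 and 10.1 CPM in ad-lib libraries. TAN replicate 1 lay within the range of the other TAN libraries. The log2 fold change was -1.78 ± 0.38 (SE) with an edgeR adjusted p of 0.0299, and at 12:00 p.m. it was 0.36. No gene of the list was called with the B and T cell markers as a covariate, with limma voom or without a filter. Nor was any called without TAN replicate 3 or 4 or without ad-lib replicate 1, 3 or 4. The difference between the times was -2.14 with an unadjusted p of 0.000183 and an adjusted p of 0.199 (edgeR). Il17rb, the receptor of IL-25, had -1.36 without passing (edgeR adjusted p = 0.147), with 1.53 to 3.05 CPM in TAN and 4.88 to 8.49 CPM in ad-lib libraries. Of the 21 genes of the list 16 passed the filter, with a median of -0.89 (-0.49 with the B and T cell markers as a covariate). Of these 16 genes, 2 were nominally lower and 0 higher, where 9.48% and 8.00% of all genes were. Log2 fold changes were negative in 13 and positive in 3, with a highest value of 2.16. Il5, Il13, Areg, Siglecf and Epx were filtered out.

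Csf1 had 18.5, 15.8, 21.9 and 17.3 CPM in TAN and 32.7, 24.2, 51.4 and 44.1 CPM in ad-lib libraries, all TAN libraries being lower. Its log2 fold change was -1.05 ± 0.23 (SE) with an edgeR adjusted p of 0.0371, and it held in 1 of the 8 fits. The 14 macrophage markers had a median of -0.37, with 3 nominally lower (9.48% of all genes) and none called. Their summed level was 398 to 702 CPM in TAN and 733 to 871 CPM in ad-lib libraries, without overlap. Itgam, an integrin of myeloid cells, had a log2 fold change of -1.40, and Csf1r, the receptor of Csf1, -0.69.

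The other lower genes, F730311O21Rik, Cabp1, a calcium-binding protein, and Gm9733, had 0 counts in all 4 TAN libraries. F730311O21Rik had 20, 27, 47 and 30 counts in ad-lib replicates 1 to 4, which makes TAN at least 29.5-fold lower when 3 counts over the TAN group are taken as the limit of a count of 0. Cabp1 had 15, 8, 60 and 25 counts, or at least 25.7-fold lower, and Gm9733 had 34, 10, 25 and 14 counts, or at least 19.7-fold lower. These limits cover counting error only, and all 3 genes lie near the lower end of detection.

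Immune and proliferation lists had negative medians with few calls. Medians were -1.48 for B cell, -0.74 for T cell and -1.001 for lymph node venule and stroma markers, with no called gene among 34, and the spread of the TAN libraries is that given above. Ighm, the heavy chain of IgM, had 663, 125, 274 and 89.7 CPM in TAN and 798 to 1232 CPM in ad-lib libraries, and its log2 fold change of -1.70 did not pass (edgeR adjusted p = 0.118). Interferon-stimulated genes had a median of -0.46, with 3 of 18 nominally lower, among them Ifit2 (-0.87), and proliferation genes -0.72, with Plk1 (-1.87) as the 1 of 18 nominally lower, where 9.48% of all genes were. With the lymphocyte covariate the proliferation median was 0.15, the T cell median 0.36 and the interferon median -0.42. The T cell markers are part of that covariate, so their median in that fit does not show whether they changed. Mcm5 and Top2a, of DNA replication, were at 22.2 and 20.96 CPM in TAN replicate 1 and at most 5.28 and 4.64 CPM in the other TAN libraries, and among TAN libraries the lymphocyte markers were likewise highest in replicate 1.

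For the core clock, no gene of 20 was called and the median was 0.20 (-0.17 with the lymphocyte covariate). Dbp, at 0.82, Nr1d1, at 0.88, Arntl, at -0.28, and Per2, at -0.13, did not pass. Smaller medians were also seen for beige and thermogenic genes (0.22, and -0.048 with the lymphocyte covariate, with 5 of 24 nominally higher), the unfolded protein and integrated stress response (0.18, 4 of 23), glucocorticoid targets (0.10, 3 of 13), insulin signalling and FoxO (-0.02, 3 of 24 higher and 1 lower) and immediate early and heat shock genes (-0.14, 1 of 25 lower), with no calls in any of them. Of all genes, 8.00% were nominally higher at 12:00 a.m. and 9.48% lower. In 9 of the 23 stress response genes the effect was nominally more positive at 12:00 a.m. (6.46% of all genes) than at 12:00 p.m., where their median was -0.39. Adipokines and receptors had a median of 0.62, with 5 of 14 nominally higher, among them Rbp4 (1.41) and Retn (0.99), both secreted by adipocytes. The 20 metabolic elasticity genes that the study names had a median of 1.17, with 12 nominally higher, 1 lower (Peg3, -1.32) and 1 called (Mvd).

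Markers of further cell types had medians of -0.40 for skeletal muscle, 0.11 for epithelium and skin, 0.16 for progenitors and matrix, -0.25 for endothelium and 0.39 for erythrocytes, with none called. The muscle markers were high in 1 library of each diet, 618 CPM in TAN replicate 3 and 738 CPM in ad-lib replicate 3, and 12.8 to 115 CPM elsewhere. With their level as a covariate 29 genes were higher and 7 lower.

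Over all genes, the effect at 12:00 a.m. differed from that at 12:00 p.m. in 1 gene by the same thresholds (edgeR), F730311O21Rik (0.00501% of the genes), and 1902 genes met the nominal threshold with the same size. Against the mean effect over the other 5 time points, 0 genes passed in edgeR (0% of the genes) and 595 met the nominal one, while DESeq2 called 11. At 12:00 p.m. itself, 17 genes were higher (0.0851%) and 1 lower (0.00501%). By the smallest unadjusted p of these differences, Mesd, a chaperone of lipoprotein receptors, had log2 fold changes of 0.47 at 12:00 a.m. and -0.54 at 12:00 p.m., and P4ha1, a subunit of the collagen prolyl hydroxylase, 0.48 and -0.58. Mt1, a metallothionein that glucocorticoids raise, had 0.98 and -0.98, with 109 to 226 CPM in TAN and 60.5 to 88.4 CPM in ad-lib libraries at 12:00 a.m.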

How the data were processed

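The authors selected poly-A RNA, sequenced paired-end Illumina reads and deposited raw counts per gene for each library. The authors also deposited FPKM averaged over the 4 libraries of a group, used only to check time labels. The submitters' processing notes name TopHat 1.3.3, DESeq2 1.20.0, limma and edgeR and the builds mm9, mm10 and GRCm38 without their roles. Of the 54532 genes in the table, 98.3% share coordinates with GENCODE M21 (GRCm38). Here, genes were kept by filterByExpr (minimum count 10) and scaled by TMM, and 1 robust quasi-likelihood model of the 48 libraries in 12 groups was fitted with edgeR 4.0.16 in R 4.3.3. A call required a p, adjusted after Benjamini and Hochberg, below 0.05 and a log2 fold change beyond 1 in either direction, and CPM values include TMM factors. DESeq2 1.42.0 and limma 3.58.1 voom were alternatives. For contrasts of the diets at a time point the study's methods name limma and edgeR. The fit was tested on simulated data, where at 12:00 a.m. 15.3% of genes with a log2 fold change of 1 and 44.9% of those with 2 were called. Of those with 2 and a dispersion (spread beyond counting error) under the median, 93.0% were called. A change of 1 lies at the fold threshold, which itself limits the share called.

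The comparison and the gene lists were chosen with earlier results of these data known. Named genes are all called genes, those with the smallest p per list (4, or 2 for marker lists), the clock and lipogenic genes given in the design, and the 5 smallest p of each difference between times. A further 10 genes were named after their values were seen. A few items that this rule names are not reported here. A symbol on several rows is represented by the row with the most counts. Per the labels, each sample is 1 group member and 0 sample columns were left unused.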

Additional observations from a re-analysis of the deposited data

Results flagged for a closer look

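A library far from the other 3 of its group was found in 28 of 275 groups examined, where chance gives about 1 in 20, and genes that rise and fall together are not independent. TAN replicate 1 was the far library most often. It was low for Slc25a1 (1008 CPM against 2291 to 2448), Gyg (155 against 212 to 222) and Idh3b (280 against 419 to 447). It was high for Irf9 (64.4 against 35.0 to 36.1), Mcm5 (22.2 against 3.25 to 5.28), Mcm6 (60.2 against 12.0 to 16.1), Top2a (20.96 against 1.82 to 4.64), Egr3 (20.5 against 0.554 to 3.46), the B cell gene Cr2 (141 against 0.753 to 23.9) and, at low levels, Epcam (4.69 against at most 0.117), Prg2 (0.639 against at most 0.0628) and Ccl19 (0.0852 against 0).

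TAN replicate 4 had 11.9% mitochondrially encoded counts against 6.38% to 6.77%, with mt-Nd2 at 8639 CPM against 2977 to 3332. In the same library Per2 was 42.2 CPM against 9.73 to 12.8 and Peg3 was 21.5 CPM. TAN replicate 3 stood out for Trib3 (20.4 CPM against 11.4 to 12.7).

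Among ad-lib libraries, replicate 3 was high for the muscle genes Myh4 (116 CPM against 0.516 to 2.55) and Ttn (30.5 against 1.80 to 6.48) and for Madcam1 (3.80 against 1.60 to 1.88) and low for Emcn (26.6 against 36.5 to 37.8). Replicate 4 was low for Tecr (110 against 126 to 128) and Cd28 (27.0 against 40.1 to 40.7) and high for Fosb (8.73 against 0.352 to 0.797). Replicate 1 was high for Chchd10 (52.9 against 26.2 to 30.1) and Ccl19 (17.9 against at most 0.282) and low for F730311O21Rik (0.781 against 1.35 to 1.44). Replicate 2 was high for Hsd17b7 (41.8 CPM).

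The TAN effect on F730311O21Rik at 12:00 a.m. differed from that at 12:00 p.m., with an adjusted p of 0.00477 by edgeR's test of the difference.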

How the results depend on the processing

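The 22 higher and 5 lower genes became 24 and 2 with no filter, 35 and 7 with at least 10 counts in all 8 libraries, 37 and 7 with RLE factors, 146 and 154 with DESeq2, 29 and 9 with limma voom, 5 and 2 with the lymphocyte covariate, 47 and 19 with the adipocyte covariate, 29 and 7 with the muscle covariate and 21 and 5 with the replicate block. In a separate edgeR fit of the 8 libraries they were 0 and 0, with 303 and 530 before adjustment of p. TAN replicates 1 and 3 against the 4 ad-lib libraries, chosen after seeing the data, gave 1 and 0 with edgeR (241 and 976 unadjusted). The unadjusted threshold gave 323 and 1176, and leaving out 1 library 7 to 281 and 1 to 254, the highest without TAN replicate 1. The cause was not tested. The 27 genes kept their direction wherever they were tested.

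Differences of the 12:00 a.m. effect from that at 12:00 p.m., 1 gene, numbered 36 with DESeq2, 19 with limma voom, 2 with the lymphocyte covariate, 0 in edgeR with at least 10 counts in all 8 libraries, which leaves that gene out (1013 before adjustment), and 1902 before adjustment. Differences from the other 5 time points, 0 genes, numbered 11 with DESeq2 and 595 before adjustment.

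Same-numbered mice did not share deviations throughout (correlations -0.17, 0.60, -0.07 and 0.33), so the numbers were not taken as pairs, and the replicate block kept 25 of the 27 calls.

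Direction changed for these genes, none of them called. With the lymphocyte covariate Nfkbia was 0.26, Krt10 -0.20, Lox -0.094, Emcn -0.14, Hbb-bs -0.10 and Hmgcs1 -0.11. With TAN replicates 1 and 3 alone Nfkbia was 0.042, Emcn -0.15 and Hbb-bs -0.15. Myh4 was 0.042 with the muscle covariate, of which it is a part. Over the fits without 1 library Myh4 ranged from -4.63 to 1.55 (the highest without ad-lib replicate 3), Arntl from -0.48 to 0.20 (without ad-lib replicate 2), Stard4 from -0.0070 (without TAN replicate 2) to 0.40 and Per2 from -0.86 (without TAN replicate 4) to 0.12.

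Of 33 list medians, 10 changed sign with the lymphocyte covariate: proliferation (0.15), T cell (0.36), lipolysis (-0.10), beige (-0.048), clock (-0.17), glucocorticoid (-0.094), adipocyte (-0.11), epithelial (-0.037), progenitor (-0.45) and erythrocyte (-0.29) lists. The T cell list is part of the lymphocyte covariate. With the adipocyte covariate 4 lists changed sign, among them the adipocyte list, which makes up that covariate. With TAN replicates 1 and 3 alone 5 did, and in each other fit at most 4. The cause was not tested. With 4 libraries a diet, a simulated log2 fold change of 1 was rarely called, and the fold threshold of 1 itself limits that share.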
